A study of Homo sapiens with 30 samples.

Results

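The EGF receptor family and its ligands were followed as 8 genes, taken by symbol from a table of 24895 entries. They were the receptors EGFR, ERBB2 and ERBB3, the ligands AREG, EREG, HBEGF and TGFA, and EPHA2. EPHA2 is a receptor for ephrin-A ligands and belongs to the Eph family, not to the EGF receptor family, so it is described apart. RNA-seq values were FPKM, a measure of expression corrected for how long the transcript is and how many fragments were mapped. PANC-1 and MiaPaCa2, both established cell lines of human pancreatic ductal adenocarcinoma (PDAC), were transfected with siDDX60L, siMYEOV, siKCNN4, siS100A16 or siControl. These are small interfering RNAs (siRNAs) against DDX60L, MYEOV, KCNN4 and S100A16 and a control siRNA. Each of the 10 groups held 3 libraries, which gave 30 in all. The study linked the 4 targeted genes to PDAC, and its account of the transcriptome deals with siDDX60L and siMYEOV. Each line is a single tumour-derived culture, and the study's methods speak of 3 replicates for each sample and of independent repeats in general, while the labels do not say whether the 3 libraries of a group came from separate cultures. The p values speak only of the variation among libraries, which may be technical.

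EGF family ligands are made as membrane proteins and released by proteases such as ADAM17. AREG and TGFA bind EGFR, while EREG and HBEGF also bind ERBB4. ERBB2 has no known ligand of its own and pairs with the other receptors, and ERBB3, which binds neuregulins, has little kinase activity and signals through its partner. The pathway runs through the kinases MEK and ERK and through PI3K and AKT, and it is often active in PDAC.

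Each targeted gene was lower after its own siRNA than after siControl. DDX60L fell by 0.55 on the log2 scale in PANC-1 and by 1.27 in MiaPaCa2, KCNN4 fell by 0.98 and 1.41, and S100A16 fell by 2.31 and 3.98. MYEOV fell by 1.19 in PANC-1. In MiaPaCa2, MYEOV was below the level needed for testing. It was 0.155 to 0.190 FPKM after siMYEOV and 0.691 to 0.985 FPKM after siControl. The 4 targeted genes, each siRNA's own target included, were counted with the calls defined below. In PANC-1 after siKCNN4, 2 were higher and 2 lower (13.8% and 12.9% of all tested genes). After siDDX60L there, 0 were higher and 2 lower (10.2% and 7.34%), and after siS100A16 1 was higher and 1 lower (16.5% and 8.94%). In MiaPaCa2, where 3 were tested, 1 was higher and 1 lower after siKCNN4 (16% and 7.23%). The remaining comparisons had 0 higher and at most 1 lower. FPKM sums were 375091 to 407738 per PANC-1 library and 395879 to 416201 per MiaPaCa2 library, and no library stood apart from its replicates. The defining epithelial genes EPCAM and CDH1 were expressed in PANC-1, at 4.94 to 23.7 and 0.659 to 5.95 FPKM, but were listed at 0 in 11 and 13 of the 15 MiaPaCa2 libraries, where KRT8 and KRT18 were high. CD3E and PRSS1, which mark T cells and acinar cells, were listed at 0 in all 30 libraries, and PTPRC, which marks leukocytes, reached at most 0.0304 FPKM. Other genes of the leukocyte list were present, with CD68 at 29.3 to 84.5 FPKM in PANC-1 and 8.08 to 16.4 FPKM in MiaPaCa2, CD74 at up to 8.59 FPKM in PANC-1 and LYZ at up to 5.87 FPKM in MiaPaCa2.

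The study lists several siRNAs for DDX60L and MYEOV, and the ones it carried forward are shown because the groups rest on them. They are given as the sense strand on GRCh37, with bases 12 to 18 in capitals, which is the site that pairs with guide bases 2 to 8 (the seed).

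siDDX60L: gagcttgttctCGAGTCAt

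siMYEOV: ggaggacacgcAAGTTCAg

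The siDDX60L strand matched DDX60L in coding sequence of exon 8 of 38, at chr4:169374318-169374336 on the minus strand. The siMYEOV strand matched MYEOV in the 3' UTR, in exon 2 of 2, at chr11:69064185-69064203 on the plus strand. The letters CGAGTCA occurred in the 3' UTR of 0 of the 8 genes, while 1.66% of 19271 annotated genes had them. AAGTTCA occurred once in the 3' UTR of TGFA and in none of the other 7, beside 12.3% of all genes. These searches covered 1 transcript per gene and exact letters only. Sequences for siKCNN4 and siS100A16 were not found in the study's supplementary tables, so their seeds were not searched. The labels do not give which siRNA sequence was used for a library.

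Fold changes below are differences of log2(FPKM + 1), which understate changes of genes near 1 FPKM, and are given as the siRNA group minus siControl. Calls required a limma adjusted p under 0.05 together with a log2 fold change of 0.5 or more in either direction. EGFR, ERBB2, ERBB3, AREG, EREG, HBEGF and EPHA2 passed the filter of a mean of 1 FPKM in both lines, and TGFA passed in neither. The 4 comparisons within a line share the same 3 siControl libraries, so they are not independent of each other. In bulk samples, fewer cells of a kind and less RNA per cell cannot be told apart.

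EGFR, the receptor of AREG and TGFA (GRCh37 chr7:55086710-55279321, plus strand, ENSG00000146648), had its highest FPKM in the siControl libraries of both lines. In PANC-1 it was 34.0, 36.1 and 37.2 FPKM after siDDX60L, 41.5, 40.5 and 40.7 after siMYEOV, 36.1, 36.95 and 36.6 after siKCNN4, and 49.4, 51.5 and 51.7 after siS100A16, against 62.1, 63.5 and 64.0 after siControl. No siRNA group overlapped siControl, and siDDX60L and siKCNN4, the lowest 2 groups, overlapped each other. EGFR fell by 0.81 ± 0.04 after siDDX60L (SE, adjusted p = 8.5e-09), by 0.61 ± 0.04 after siMYEOV (adjusted p = 3.0e-08) and by 0.77 ± 0.04 after siKCNN4 (adjusted p = 4.4e-09), in comparisons where 7.34%, 15.1% and 12.9% of all tested genes were called lower. After siS100A16 the difference was -0.31 ± 0.04 (adjusted p = 1.9e-05), which is short of the fold threshold. Not overlapping siControl on the low side was common among all tested genes of PANC-1, at 23.2% after siDDX60L, 30.9% after siMYEOV, 30.6% after siKCNN4 and 24.5% after siS100A16.

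In MiaPaCa2, EGFR was 29.0, 29.9 and 30.6 FPKM after siDDX60L, 24.9, 25.7 and 26.6 after siMYEOV, 31.7, 32.2 and 33.0 after siKCNN4, and 23.9, 25.7 and 25.9 after siS100A16, against 36.6, 37.7 and 39.7 after siControl. Here the lowest 2 groups were siS100A16 and siMYEOV, which overlapped each other, and siKCNN4 lay nearest to siControl. EGFR fell by 0.58 ± 0.04 after siS100A16 (adjusted p = 3.0e-07) and by 0.55 ± 0.04 after siMYEOV (adjusted p = 4.0e-07). For siDDX60L the difference was -0.34 ± 0.04 (adjusted p = 4.8e-05), and for siKCNN4 it was -0.23 ± 0.04 (adjusted p = 0.00084), both under the fold threshold. Of all genes tested in MiaPaCa2, the share below every siControl library was 23.4% after siDDX60L, 24.5% after siMYEOV, 23.4% after siKCNN4 and 26.4% after siS100A16. The order of the siRNAs thus differed between the lines. The siKCNN4 effect on EGFR was lower in PANC-1 than in MiaPaCa2 by a tested difference of -0.54 ± 0.06 (adjusted p = 5.6e-08), which became -0.49 when libraries were scaled by the median of ratios. For siDDX60L the difference between the lines was -0.47 ± 0.06 (adjusted p = 1.3e-06), and for siS100A16 it was 0.27 ± 0.06 (adjusted p = 0.00061). Both were under the fold threshold. For siMYEOV the difference between the lines was -0.07 ± 0.06 (2 SE interval -0.18 to 0.04).

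ERBB2 (chr17:37844167-37886679, plus strand), the partner receptor, was higher than siControl in PANC-1 where EGFR was lower. In PANC-1 it was 16.02, 15.7 and 14.5 FPKM after siS100A16, against 9.29, 9.35 and 9.14 after siControl, and it rose by 0.68 ± 0.05 (adjusted p = 4.0e-07). The other 3 siRNA groups of PANC-1 lay between 9.79 and 12.5 FPKM, above the siControl libraries, with differences of 0.23 (siDDX60L), 0.33 (siMYEOV) and 0.11 (siKCNN4) that were not called. Of all genes tested in PANC-1, the share above every siControl library was 33.5% (siDDX60L), 34.9% (siMYEOV), 33.7% (siKCNN4) and 40% (siS100A16). In MiaPaCa2, ERBB2 was 33.3, 33.2 and 35.7 FPKM after siMYEOV and 32.3, 31.5 and 32.7 after siKCNN4, against 22.6, 25.8 and 25.9 after siControl. Both groups stood above siControl without overlap, at 0.45 ± 0.06 (adjusted p = 6.7e-05) and 0.37 ± 0.06 (adjusted p = 0.00037), under the fold threshold. For MiaPaCa2 that share of all genes was 39.8% after siMYEOV, 38.9% after siKCNN4, 32.7% after siS100A16 and 32.4% after siDDX60L. After siS100A16 in MiaPaCa2, ERBB2 was 23.7, 24.0 and 20.6 FPKM, a difference of -0.12 ± 0.06, and the siS100A16 effect was higher in PANC-1 than in MiaPaCa2 by 0.79 ± 0.08 (adjusted p = 1.3e-07).

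The ratio of EGFR to ERBB2 within a library, which no scaling between libraries can move, was 3.02 to 3.74 over the 12 PANC-1 libraries with a targeting siRNA and 6.69 to 7.002 after siControl. In MiaPaCa2 it was 0.744 to 0.773 after siMYEOV, 0.980 to 1.02 after siKCNN4, 1.01 to 1.26 after siS100A16 and 1.18 to 1.29 after siDDX60L, against 1.46 to 1.62 after siControl. In the siMYEOV libraries of MiaPaCa2, ERBB2 thus exceeded EGFR.

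ERBB3 (chr12:56470583-56497289, plus strand), the neuregulin receptor, stood near 1 FPKM, where the pseudocount shrinks fold changes. In PANC-1 it was 0.712, 0.686 and 0.588 FPKM after siMYEOV, against 1.92, 1.18 and 1.91 after siControl, and it fell by 0.67 ± 0.14 (adjusted p = 0.00083). In MiaPaCa2 it was 0.988, 0.542 and 0.848 FPKM after siS100A16 and 1.24, 1.47 and 1.79 after siControl, a difference of -0.48 ± 0.12 (adjusted p = 0.0037). That difference was under the threshold but passed it with a pseudocount of 0.1 (-0.86), with the median of ratios (-0.51) and without siControl replicate 1 (-0.56), siS100A16 replicate 1 (-0.56) or siS100A16 replicate 3 (-0.51). ERBB4, the fourth receptor of the family, had group means of at most 0.023 FPKM.

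**Figure D1:**
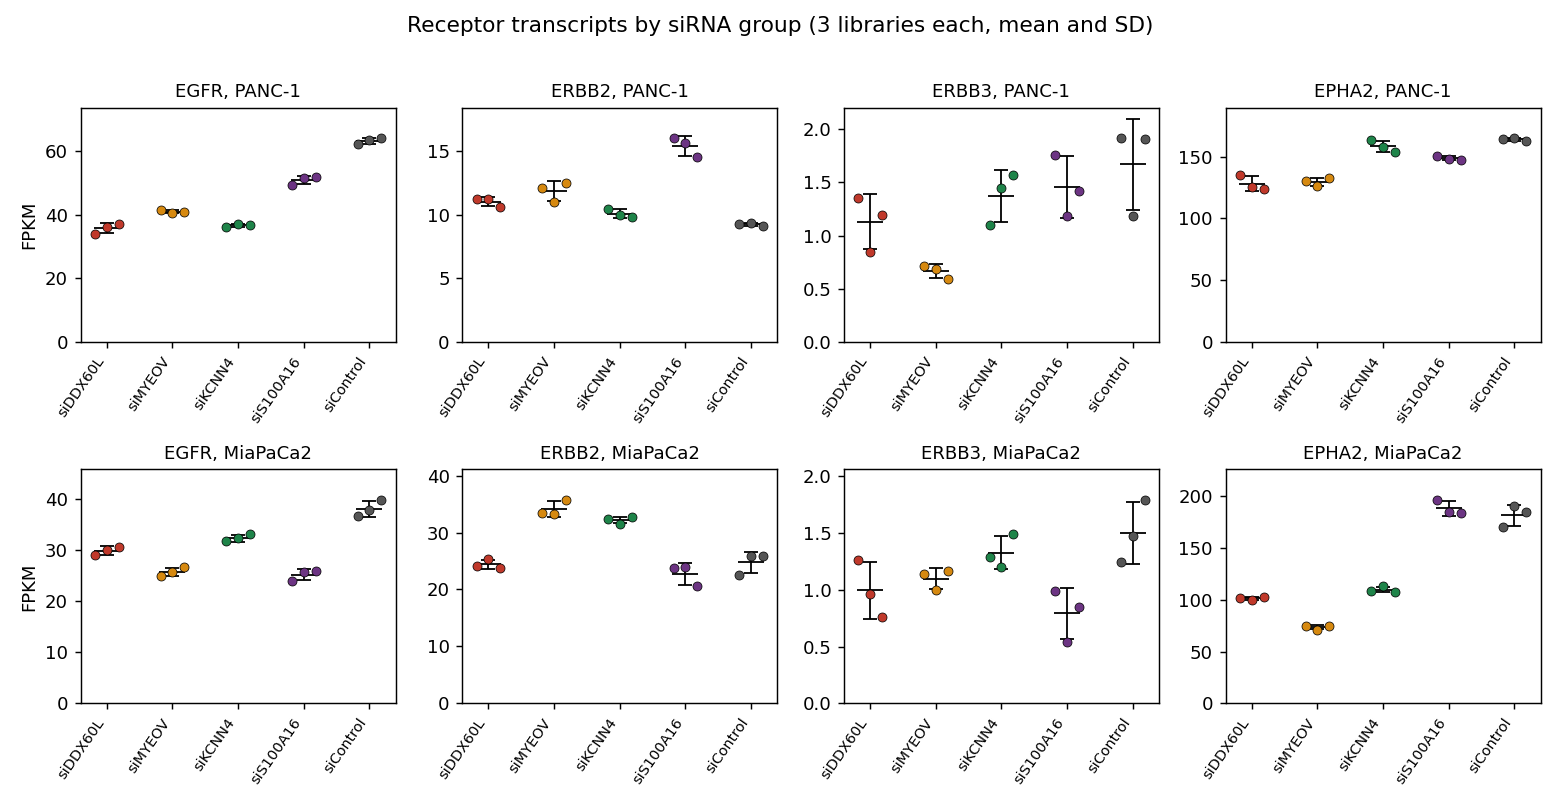
FPKM of EGFR, ERBB2, ERBB3 and EPHA2 in each library, with PANC-1 in the upper row and MiaPaCa2 in the lower; points are libraries, the dash is the mean and the bar 1 SD of 3 libraries. The siControl libraries hold the highest EGFR values in both lines, and EPHA2 in MiaPaCa2 reads 71.3 to 113 FPKM after siDDX60L, siMYEOV and siKCNN4, against 170.3 to 190.4 after siControl.

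The ligand AREG (chr4:75310853-75320722, plus strand, ENSG00000109321) had the largest fold change of any of the 8 genes after an siRNA, in PANC-1 after siKCNN4. In PANC-1 it was 4.91, 3.44 and 4.71 FPKM after siDDX60L, 10.8, 11.1 and 10.98 after siMYEOV, 21.9, 24.7 and 26.0 after siKCNN4, and 11.3, 9.12 and 10.9 after siS100A16, against 2.18, 1.91 and 2.28 after siControl. No group overlapped siControl, siKCNN4 was highest, and siMYEOV overlapped siS100A16. AREG rose by 3.01 ± 0.11 after siKCNN4 (adjusted p = 2.9e-10, mean FPKM 11.4 times that of siControl), by 1.94 ± 0.11 after siMYEOV (adjusted p = 1.1e-08), by 1.87 ± 0.11 after siS100A16 (adjusted p = 2.0e-08) and by 0.77 ± 0.11 after siDDX60L (adjusted p = 7.6e-05). In PANC-1, 13.8%, 14.3%, 16.5% and 10.2% of all tested genes were called higher in those comparisons.

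In MiaPaCa2, AREG had a higher level after siControl and smaller fold changes. It was 28.9, 26.3 and 26.1 FPKM after siDDX60L, 45.4, 50.7 and 49.5 after siMYEOV, 44.9, 44.1 and 44.8 after siKCNN4, and 41.2, 42.0 and 44.3 after siS100A16, against 32.2, 31.6 and 31.1 after siControl. The siMYEOV, siKCNN4 and siS100A16 groups lay above siControl and siDDX60L below it, all without overlap. AREG rose by 0.60 ± 0.05 after siMYEOV (adjusted p = 4.7e-07), a call that was lost with scaling by the median of ratios, at 0.49. The values were 0.48 ± 0.05 after siKCNN4 (adjusted p = 4.2e-06), 0.41 ± 0.05 after siS100A16 (adjusted p = 1.7e-05) and -0.22 ± 0.05 after siDDX60L (adjusted p = 0.0035), all short of the fold threshold. The effect was higher in PANC-1 than in MiaPaCa2 for each siRNA, by 0.98 (siDDX60L), 1.34 (siMYEOV), 2.53 (siKCNN4) and 1.46 (siS100A16), with adjusted p of 2.1e-06 or less. GRCh37 carries a near-identical copy of AREG, AREGB, at chr4:75480629-75490486, and 95.8% of the 50-base words of the AREG transcript occur in it. AREGB had no entry of its own in the table, so how reads common to both were counted is not known.

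EREG (chr4:75230862-75254466, plus strand, ENSG00000124882) is the neighbour of AREG, 56.4 kb away, and binds EGFR and ERBB4. In MiaPaCa2 it was 34.5, 34.2 and 33.8 FPKM after siDDX60L, 47.8, 51.0 and 47.6 after siMYEOV, 26.7, 23.4 and 24.1 after siKCNN4, and 71.0, 72.7 and 74.4 after siS100A16, against 73.5, 64.2 and 68.1 after siControl. The siDDX60L, siMYEOV and siKCNN4 groups lay below siControl, and siS100A16 overlapped it. EREG fell by 1.44 ± 0.06 after siKCNN4 (adjusted p = 1.2e-09) and by 0.98 ± 0.06 after siDDX60L (adjusted p = 3.0e-08). After siMYEOV the difference was -0.48 ± 0.06 (adjusted p = 1.0e-05), and it passed the threshold with scaling by the median of ratios (-0.60), without siControl replicate 2 (-0.53) and without siMYEOV replicate 2 (-0.51). Of all genes tested in MiaPaCa2, 7.23% were called lower after siKCNN4 and 7.28% after siDDX60L.

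In PANC-1, EREG differed from siControl in the other direction after siMYEOV and siKCNN4. It was 12.1, 13.1 and 12.3 FPKM after siMYEOV, 6.26, 6.66 and 6.61 after siKCNN4, 12.5, 12.8 and 12.2 after siS100A16 and 2.69, 2.88 and 2.45 after siDDX60L, against 3.34, 3.20 and 3.53 after siControl. The first 3 groups lay above every siControl library and siDDX60L below. EREG rose by 1.63 ± 0.06 after siMYEOV (adjusted p = 1.9e-10), by 1.63 ± 0.06 after siS100A16 (adjusted p = 2.7e-10) and by 0.79 ± 0.06 after siKCNN4 (adjusted p = 1.2e-07), and the difference after siDDX60L was -0.25 ± 0.06 (adjusted p = 0.0028). The siRNA effect was higher in PANC-1 than in MiaPaCa2 by 0.73 (siDDX60L), 2.11 (siMYEOV), 2.22 (siKCNN4) and 1.55 (siS100A16), with adjusted p of 2.3e-07 or less.

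In PANC-1, AREG and EREG both rose after siMYEOV, siKCNN4 and siS100A16, while in MiaPaCa2 they differed in sign after siMYEOV and siKCNN4. They also differed in sign after siDDX60L in PANC-1. The start-site windows of these neighbours are shown for that reason, and that of EPHA2 because it holds a motif also in AREG. They are RefSeq sequences of GRCh38.p14, 250 bases before to 50 after the start, 5' to 3' on the gene's strand, with TGACGTCA (the cAMP response element) and TATAAA (the TATA box) in capitals.

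AREG, chr4:74444886-74445185, plus strand: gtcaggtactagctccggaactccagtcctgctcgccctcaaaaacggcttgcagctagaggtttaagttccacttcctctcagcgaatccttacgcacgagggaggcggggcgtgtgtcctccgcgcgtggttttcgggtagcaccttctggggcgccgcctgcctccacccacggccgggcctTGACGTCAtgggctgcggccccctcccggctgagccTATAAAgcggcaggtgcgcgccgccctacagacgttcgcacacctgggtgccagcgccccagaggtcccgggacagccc

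EREG, chr4:74364895-74365194, plus strand: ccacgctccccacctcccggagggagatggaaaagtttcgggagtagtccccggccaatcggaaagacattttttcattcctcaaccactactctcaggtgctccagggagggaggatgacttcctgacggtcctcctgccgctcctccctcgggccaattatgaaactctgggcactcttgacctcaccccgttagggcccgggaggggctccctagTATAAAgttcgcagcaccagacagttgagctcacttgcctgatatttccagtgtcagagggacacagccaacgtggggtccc

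EPHA2, chr1:16156020-16156319, minus strand: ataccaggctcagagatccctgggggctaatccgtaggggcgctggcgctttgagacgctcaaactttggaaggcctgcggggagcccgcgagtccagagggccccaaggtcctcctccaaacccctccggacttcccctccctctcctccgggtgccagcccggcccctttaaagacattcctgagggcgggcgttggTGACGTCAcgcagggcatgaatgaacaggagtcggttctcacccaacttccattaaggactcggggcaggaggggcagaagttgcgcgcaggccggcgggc

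TGACGTCA starts at base -65 of AREG and -51 of EPHA2, counted from the start site, and is held by 1.84% of 34796 such windows. TATAAA starts at base -29 of AREG and -32 of EREG and is held by 11.6% of them. The AP-1 motif TGANTCA, held by 7.72%, was searched as well and was not in these 3 windows. All motifs were searched on both strands. TGANTCA was found in ERBB2 and in 1 of the 2 windows of EGFR. That EGFR window, which starts at chr7:55109589 of GRCh38, also holds TATAAA, starting at bases -146 and -36. The other EGFR window held none of the 3 motifs. Which of the 2 windows is the main start of EGFR was not examined. Windows were matched for 7 of the 8 genes, not for ERBB3. AREG, with both motifs, and EREG, with the TATA box alone, thus share 1 of the 3 motifs, and a match says nothing of whether a factor binds there.

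The ratio of AREG to EREG was set side by side within each library. In PANC-1 it was 1.19 to 1.92 after siDDX60L, 0.852 to 0.892 after siMYEOV, 3.50 to 3.94 after siKCNN4 and 0.715 to 0.904 after siS100A16, against 0.597 to 0.654 after siControl. In MiaPaCa2 it was 0.769 to 0.837 after siDDX60L, 0.952 to 1.04 after siMYEOV, 1.68 to 1.89 after siKCNN4 and 0.578 to 0.595 after siS100A16, against 0.438 to 0.492 after siControl. The siControl libraries therefore had the lowest ratio of AREG to EREG in both lines, and siKCNN4 the highest.

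**Figure D2:**
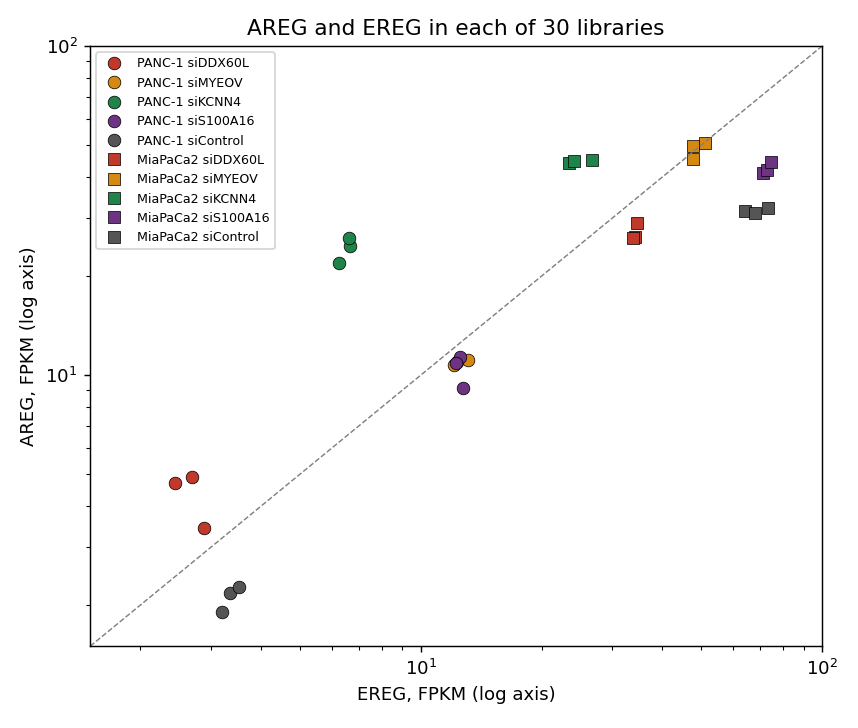
AREG against EREG in FPKM, both on log axes, with a point for each of 30 libraries; circles are PANC-1, squares are MiaPaCa2, colours are siRNAs and the dashed line marks equal FPKM. The siControl libraries lie below the line in both lines (ratio 0.597 to 0.654 in PANC-1, 0.438 to 0.492 in MiaPaCa2), and the siKCNN4 libraries lie above it.

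HBEGF (chr5:139712428-139726188, minus strand), the heparin-binding ligand of EGFR and ERBB4, was 15.5, 17.4 and 17.4 FPKM in MiaPaCa2 after siS100A16, against 7.55, 7.48 and 8.04 after siControl, and rose by 1.03 ± 0.07 (adjusted p = 5.3e-08). The other MiaPaCa2 groups lay below siControl, at 4.49, 4.56 and 4.85 after siDDX60L, 4.25, 4.13 and 4.54 after siMYEOV, and 4.67, 5.20 and 4.35 after siKCNN4. HBEGF fell by 0.63, 0.71 and 0.60 in these 3 groups (SE 0.07, adjusted p of 6.9e-06 or less). The 3 groups could not be ordered, as they overlapped each other.

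In PANC-1, HBEGF was 5.66, 6.27 and 6.57 FPKM after siS100A16 and 4.61, 5.85 and 4.69 after siKCNN4, against 3.33, 2.76 and 3.00 after siControl. It rose by 0.83 ± 0.09 after siS100A16 (adjusted p = 6.9e-06) and by 0.58 ± 0.09 after siKCNN4 (adjusted p = 0.00013), and the siKCNN4 call was lost without siKCNN4 replicate 2, at 0.49. After siMYEOV it was 4.88, 4.62 and 4.01 FPKM, a difference of 0.45 ± 0.09 (adjusted p = 0.00094) that passed the fold threshold with a pseudocount of 0.1 (0.56), without siControl replicate 1 (0.50) and without siMYEOV replicate 3 (0.52). After siDDX60L it was 2.48, 2.78 and 2.65 FPKM and overlapped siControl. The effect was higher in PANC-1 than in MiaPaCa2 by 1.16 for siMYEOV and 1.18 for siKCNN4 (adjusted p of 2.5e-08 or less), while for siS100A16 the difference was -0.20 (2 SE interval -0.43 to 0.02).

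TGFA (chr2:70674416-70781325, minus strand), a ligand of EGFR alone, stayed under the filter. It was listed at 0 in the 3 siDDX60L, 1 of the siKCNN4 and the 3 siControl libraries of MiaPaCa2, and reached at most 0.0519 FPKM in that line. In PANC-1 it was 0.725, 0.925 and 1.04 FPKM after siS100A16, against 0.135, 0.611 and 0.362 after siControl, without overlap. In a fit without the filter this difference was 0.48 ± 0.12 (adjusted p = 0.0075). The other PANC-1 groups, from 0.0854 to 0.496 FPKM, overlapped siControl.

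The 4 ligands together summed to 9.32 to 10.5 FPKM in PANC-1 after siDDX60L, 27.5 to 29.1 after siMYEOV, 33.0 to 37.8 after siKCNN4 and 29.1 to 30.7 after siS100A16, against 8.48 to 9.18 after siControl. In MiaPaCa2 the sum was 64.8 to 68.0 after siDDX60L, 97.5 to 105.8 after siMYEOV, 72.7 to 76.3 after siKCNN4 and 127.8 to 136.1 after siS100A16, against 103.3 to 113.2 after siControl. The siKCNN4 libraries thus held the highest ligand sum of PANC-1 and the second lowest of MiaPaCa2. In MiaPaCa2, EREG made up 32.1 to 35.0% of the sum after siKCNN4, where AREG made up 58.9 to 61.1%, and 62.2 to 64.9% of it after siControl.

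**Figure D3:**
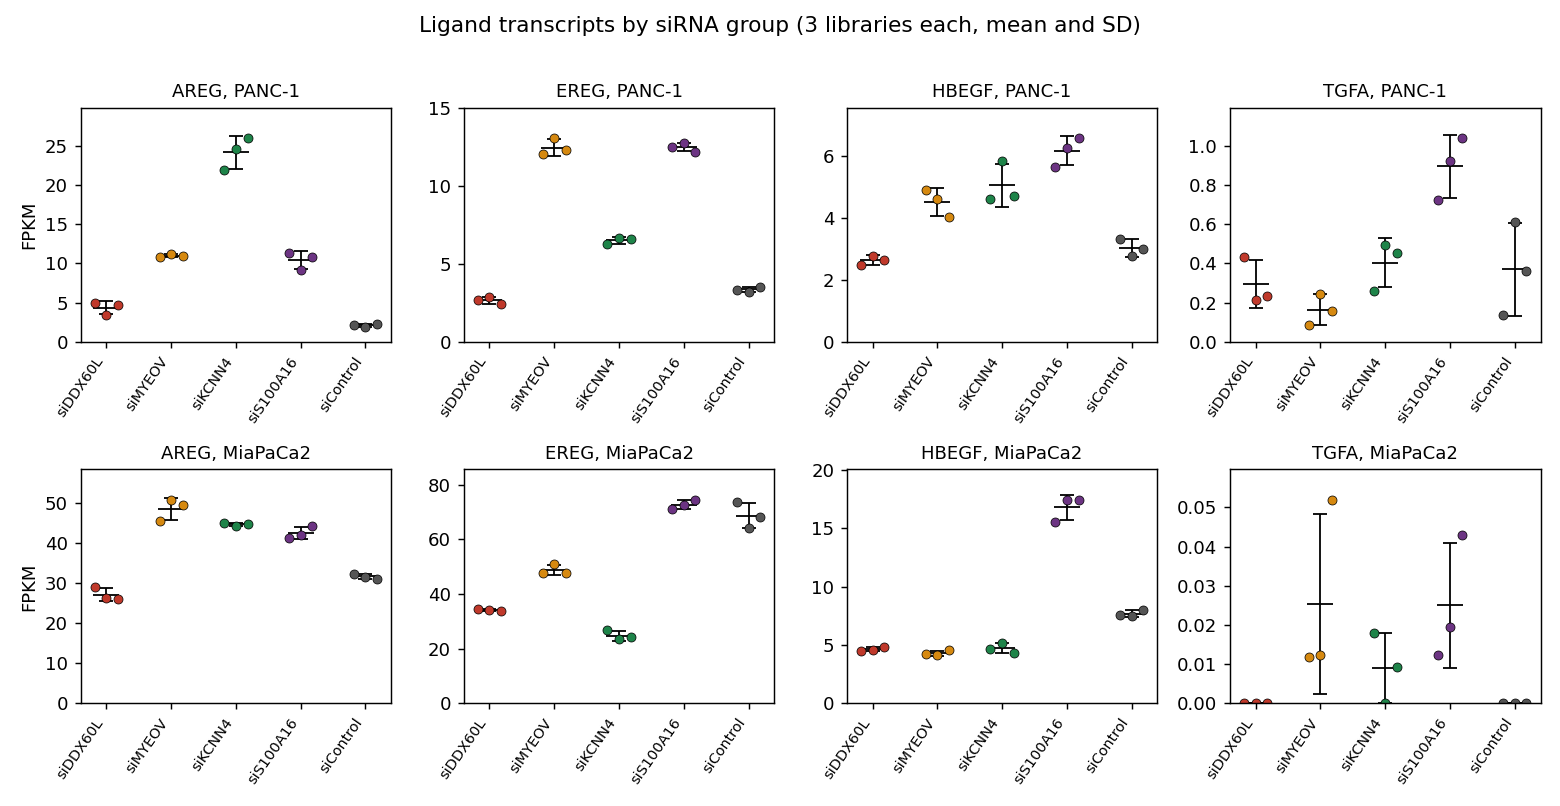
FPKM of AREG, EREG, HBEGF and TGFA in each library, with PANC-1 in the upper row and MiaPaCa2 in the lower; points are libraries, the dash is the mean and the bar 1 SD of 3 libraries, and each panel has its own scale. In PANC-1, AREG reads 21.9 to 26.0 FPKM after siKCNN4 against 1.91 to 2.28 after siControl, while in MiaPaCa2 EREG reads 23.4 to 26.7 after siKCNN4 against 64.2 to 73.5 after siControl.

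EPHA2 (chr1:16450832-16482564, minus strand, ENSG00000142627), which is known to be induced by EGFR and ERK signalling, had the highest FPKM of the 8 genes in every library. In MiaPaCa2 it was 102, 99.9 and 103 FPKM after siDDX60L, 74.7, 71.3 and 74.9 after siMYEOV, and 109, 113 and 108 after siKCNN4, against 170.3, 190.4 and 185 after siControl. All 9 libraries lay below every siControl library, while siS100A16, at 197, 185 and 184 FPKM, overlapped it. EPHA2 fell by 1.29 ± 0.05 after siMYEOV (adjusted p = 1.9e-10), by 0.83 ± 0.05 after siDDX60L (adjusted p = 1.9e-08) and by 0.72 ± 0.05 after siKCNN4 (adjusted p = 4.9e-08). Among all genes tested in MiaPaCa2, 10.4% were called lower after siMYEOV.

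In PANC-1, EPHA2 was 135, 125 and 124 FPKM after siDDX60L, 130.1, 126 and 132 after siMYEOV, 163, 158 and 154 after siKCNN4, and 151, 148 and 147 after siS100A16, against 164, 165 and 163 after siControl. It was not called changed after any of the 4 siRNAs, with differences of -0.36, -0.34, -0.05 and -0.14 in that order, of which the first 2 and the last had an adjusted p of 0.0083 or less. The effect differed between the lines by 0.95 ± 0.06 for siMYEOV (adjusted p = 1.3e-11) and by 0.67 ± 0.06 for siKCNN4 (adjusted p = 3.6e-09). For siDDX60L it differed by 0.48 ± 0.06 (adjusted p = 1.6e-06) and for siS100A16 by -0.19 ± 0.06 (adjusted p = 0.013), both under the fold threshold.

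**Figure D4:**
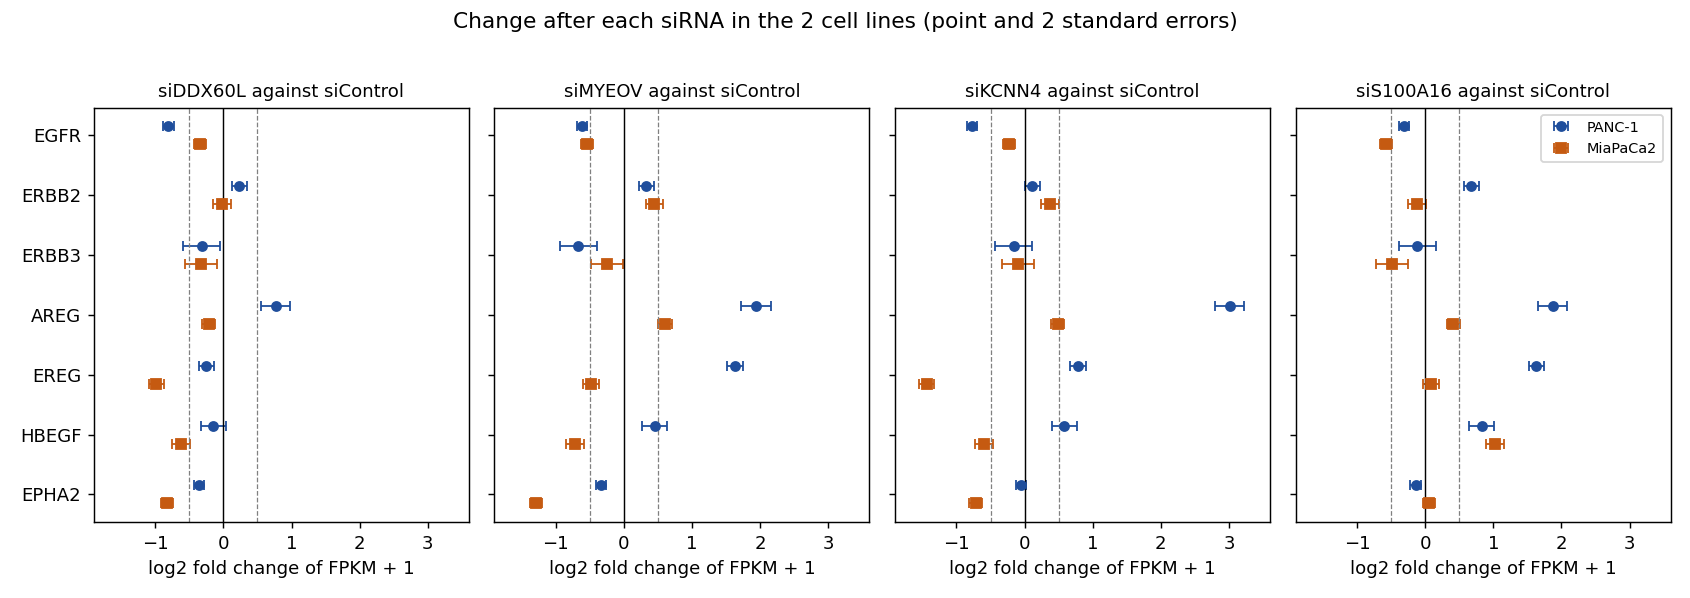
Log2 fold change of FPKM + 1 against siControl for the 7 tested genes after each siRNA, in PANC-1 (blue circles) and MiaPaCa2 (orange squares); bars span 2 standard errors on each side, and dashed lines mark a change of 0.5. AREG in PANC-1 lies to the right after every siRNA (0.77 to 3.01), and EREG after siKCNN4 lies on opposite sides of 0, at 0.79 in PANC-1 and -1.44 in MiaPaCa2.

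Counted over the 7 tested genes, PANC-1 had 2 called after siDDX60L (1 higher, 1 lower), 4 after siMYEOV (2 higher, 2 lower), 4 after siKCNN4 (3 higher, 1 lower) and 4 after siS100A16 (4 higher, 0 lower). Among all 12513 genes tested in PANC-1, 17.5%, 29.4%, 26.7% and 25.4% were called, 10.2%, 14.3%, 13.8% and 16.5% higher and 7.34%, 15.1%, 12.9% and 8.94% lower. MiaPaCa2 had 3 called after siDDX60L (0 higher, 3 lower), 4 after siMYEOV (1 higher, 3 lower), 3 after siKCNN4 (0 higher, 3 lower) and 2 after siS100A16 (1 higher, 1 lower), beside 16.1%, 26.7%, 23.2% and 22.1% of 11875 genes. By direction, 8.77%, 16.3%, 16% and 12.4% of these were called higher and 7.28%, 10.4%, 7.23% and 9.63% lower. Of the differences between the lines, 2, 4, 5 and 3 of the 7 genes were called, beside 11.4%, 18.1%, 17.7% and 13.8% of 13304 genes.

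Under siControl alone, the differences between the lines were largest for EREG and AREG among the 7 tested genes, followed by ERBB2. EREG averaged 3.36 ± 0.17 FPKM in PANC-1 and 68.6 ± 4.6 FPKM in MiaPaCa2 (SD, n = 3 each), a difference of -4.00 ± 0.05 (SE, adjusted p = 4.2e-26). AREG averaged 2.12 FPKM in PANC-1 and 31.6 FPKM in MiaPaCa2 (-3.39, adjusted p = 8.1e-21), and HBEGF averaged 3.03 FPKM in PANC-1 and 7.69 FPKM in MiaPaCa2 (-1.11, adjusted p = 6.5e-12). EGFR was higher in PANC-1, at 63.2 FPKM against 38.0 in MiaPaCa2 (0.72, adjusted p = 3.4e-14), and ERBB2 was lower, at 9.26 FPKM against 24.8 in MiaPaCa2 (-1.33, adjusted p = 6.4e-16). ERBB3 did not differ detectably (0.09, 2 SE interval -0.17 to 0.34), nor did EPHA2 by the fold threshold (-0.15, adjusted p = 0.0022). Of the 7 genes, 5 were called, beside 54.8% of all genes tested.

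Ligands of the family outside the 8 genes were followed from a list of 7. In MiaPaCa2, 2 of the 7 passed the filter. BTC, betacellulin, which lies in the same 4q cluster, was 1.49 to 1.84 FPKM after siDDX60L, 1.92 to 2.22 after siMYEOV, 2.18 to 2.97 after siKCNN4 and 1.45 to 2.01 after siS100A16, against 0.794 to 1.04 after siControl. It rose after siMYEOV (0.72), siKCNN4 (0.96) and siS100A16 (0.57), as AREG did after siMYEOV and EREG did after none of these. EPGN, epigen, next to EREG on the other side, fell by 0.51 after siMYEOV (adjusted p = 0.040). It was near the filter, at 0.587 to 1.49 FPKM after siMYEOV and 1.32 to 2.26 after siControl, and the groups overlapped. In PANC-1 the 2 that passed were NRG1 and NRG2, ligands of ERBB3 and ERBB4. NRG1 was 8.40 to 14.1 FPKM after siKCNN4 and 6.97 to 8.73 after siS100A16, against 3.88 to 5.90 after siControl, and rose by 0.95 and 0.55, while NRG2 fell by 0.81 after siMYEOV. NRG1 was listed at 0 in every MiaPaCa2 group except siMYEOV, where it reached 0.00862 FPKM.

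Among 7 proteases and iRhoms that release the ligands, 6 were tested in each line. In MiaPaCa2, 1 rose and 1 fell after siDDX60L (8.77% and 7.28% of all genes). There 2 rose and 0 fell after siMYEOV (16.3% and 10.4%). After siKCNN4 (16% and 7.23%) and siS100A16 (12.4% and 9.63%), 1 rose and 0 fell. In PANC-1, 1 rose and 1 fell after siDDX60L (10.2% and 7.34%) and siS100A16 (16.5% and 8.94%). None was called there after siMYEOV (14.3% and 15.1%), and 0 rose and 1 fell after siKCNN4 (13.8% and 12.9%). ADAM15 rose after all 4 siRNAs in MiaPaCa2 (0.64 to 0.96) and after siDDX60L (0.52) and siS100A16 (0.51) in PANC-1. ADAM17, the main sheddase of AREG, EREG and HBEGF, fell in PANC-1 after siKCNN4 (-0.76) and siS100A16 (-0.59). Among the receptor inhibitors and down-regulators, ERRFI1, which binds and inhibits EGFR kinase, was 236.9 to 263.7 FPKM in PANC-1 after siDDX60L against 430.9 to 437.3 after siControl (-0.79), and 174.7 to 183.5 against 291.9 to 339.1 in MiaPaCa2 (-0.83). It rose by 0.62 after siS100A16 in PANC-1. In MiaPaCa2 it also lay below siControl after siKCNN4, at 219.6 to 226.2 FPKM, and after siMYEOV, at 267.4 to 274.2. After siS100A16 in MiaPaCa2 it lay above siControl, at 386.4 to 408.1 FPKM. Of the 14 on that list, 11 were tested in MiaPaCa2, where 0 rose and 6 fell after siDDX60L, beside 8.77% higher and 7.28% lower over all genes, with a median of -0.54 beside 0.05. In the same line 1 rose and 3 fell after siMYEOV (16.3% and 10.4% of all genes), 0 rose and 3 fell after siKCNN4 (16% and 7.23%), and 0 rose and 2 fell after siS100A16 (12.4% and 9.63%). Of the 13 tested in PANC-1, 0 rose and 3 fell after siDDX60L (10.2% and 7.34%), 1 rose and 3 fell after siMYEOV (14.3% and 15.1%), 1 rose and 1 fell after siKCNN4 (13.8% and 12.9%), and 4 rose and 2 fell after siS100A16 (16.5% and 8.94%).

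Of the 25 adaptors and relay kinases, 24 were tested in PANC-1 and 22 in MiaPaCa2. AKT1 rose after all 4 siRNAs in PANC-1 (0.70 to 1.13) and after siDDX60L (0.84), siMYEOV (0.58) and siS100A16 (0.77) in MiaPaCa2. The adaptor SHC1 fell after siDDX60L in both lines (-0.66 in PANC-1, -1.32 in MiaPaCa2), and after siMYEOV it rose in PANC-1 (0.70). Counts for the list in PANC-1 ran from 1 higher and 1 lower of 24 after siDDX60L to 6 higher and 4 lower after siMYEOV, where 17.5% and 29.4% of all genes were called. In MiaPaCa2 they ran from 1 higher and 2 lower of 22 after siDDX60L to 4 higher and 6 lower after siS100A16, beside 16.1% and 22.1% of all genes, and medians in both lines stayed between -0.04 and 0.14.

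Genes that ERK signalling is known to induce were listed apart from the 8, and 15 of 16 were tested in each line. In PANC-1, 0 rose and 5 fell after siDDX60L (10.2% higher and 7.34% lower over all genes), 2 rose and 8 fell after siMYEOV (14.3% and 15.1%), 3 rose and 2 fell after siKCNN4 (13.8% and 12.9%), and 5 rose and 3 fell after siS100A16 (16.5% and 8.94%). In MiaPaCa2, 0 rose and 5 fell after siDDX60L (8.77% higher and 7.28% lower over all genes), 0 rose and 5 fell after siMYEOV (16.3% and 10.4%), 1 rose and 4 fell after siKCNN4 (16% and 7.23%), and 5 rose and 0 fell after siS100A16 (12.4% and 9.63%). The counts after siKCNN4 in PANC-1 lie near those shares. The phosphatase DUSP5 rose after siS100A16 in both lines (1.75 in PANC-1, 1.31 in MiaPaCa2), as HBEGF did. DUSP5 also rose after siKCNN4 in both lines (1.47 in PANC-1, 0.52 in MiaPaCa2), whereas HBEGF fell after siKCNN4 in MiaPaCa2, and DUSP5 rose after siMYEOV in PANC-1 (0.94). CCND1, cyclin D1, fell after siMYEOV and siKCNN4 in both lines (-1.23 and -1.23 in PANC-1, -1.94 and -1.65 in MiaPaCa2), while SPRY4, a feedback inhibitor, fell after siDDX60L in both (-1.29 and -1.25). Medians after siDDX60L were -0.36 in PANC-1 and -0.38 in MiaPaCa2, beside 0.07 and 0.05 over all genes. After siMYEOV they were -0.51 and -0.32, beside 0.04 and 0.11. After siKCNN4 they were 0.04 and -0.18, beside 0.02 and 0.09, and after siS100A16 0.11 and 0.33, beside 0.09 and 0.04.

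For EPHA2, the ephrin-A ligands and other Eph receptors were listed as 15 genes, of which 9 were tested in each line. EFNA1, a main ligand of EPHA2, fell in PANC-1 after siDDX60L (-0.72), siMYEOV (-1.25) and siKCNN4 (-1.15) and in MiaPaCa2 after siS100A16 (-0.72). EPHA2 was called in none of these 4 comparisons. EPHB4 fell after siKCNN4 in both lines (-1.19 in PANC-1, -1.03 in MiaPaCa2). Of the 9 in PANC-1, 3 were called after siDDX60L, 4 after siMYEOV, 4 after siKCNN4 and 0 after siS100A16, beside 17.5%, 29.4%, 26.7% and 25.4% of all genes. Of the 9 in MiaPaCa2, 1, 3, 2 and 2 were called in the same order, beside 16.1%, 26.7%, 23.2% and 22.1%.

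The genes of most like pattern were found by Pearson r of log2(FPKM + 1) over the 30 libraries, with each line centred on its own mean, among 10547 genes tested in both lines. The points share the 5 groups of a line, so r describes group patterns. For EGFR they were TRAM2 (r = 0.88), ST6GALNAC4 (0.87) and LPIN3 (0.85), and for ERBB2 they were CSRP1 (0.90), RNF187 (0.89) and GJD3 (0.85). For ERBB3 the values of the genes named were lower, with NAB1 (0.78) and CAPN5 (0.78). AREG was most like BTAF1, HDAC1 and NCKAP5L (0.89, 0.89 and 0.88), and EREG was most like TMEM70 (0.91), TIGAR (0.86) and SPRY2 (0.85), the last an ERK feedback gene. For AREG the likeness lay mainly in PANC-1, since r was 0.93 there and 0.55 in MiaPaCa2 for BTAF1, and 0.94 and 0.39 for NCKAP5L, while HDAC1 had 0.96 and 0.89. HBEGF was most like AKIRIN2 (0.90), TNFRSF12A (0.89) and CLCF1 (0.87), of which CLCF1 had 0.54 in PANC-1 and 0.95 in MiaPaCa2, and EPHA2 was most like PARP12 (0.89), ITPRIP (0.88) and NCEH1 (0.88). Among the 7 genes themselves, HBEGF and EREG had r = 0.73 in the 15 MiaPaCa2 libraries and 0.86 in PANC-1. HBEGF and EPHA2 had 0.83 in MiaPaCa2 and 0.19 in PANC-1, and AREG and EREG had -0.01 and 0.63 in that order.

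Epithelial keratins moved in several of the same groups. The sums of 6 epithelial markers given here were nearly all KRT8, KRT18 and KRT19, and say little of KRT7, EPCAM and CDH1. The sum of 6 epithelial markers was 1008 to 1143 FPKM in PANC-1 after siMYEOV, 1283 to 1363 after siDDX60L, 1385 to 1506 after siKCNN4 and 2200.1 to 2325 after siS100A16, against 3137 to 3389 after siControl. In MiaPaCa2 it was 579 to 653 after siMYEOV, 1026 to 1110.4 after siKCNN4, 1799.7 to 1896 after siDDX60L and 2009 to 2055 after siS100A16, against 2025 to 2171 after siControl. Fibroblast markers summed to 18.4 to 20.1 FPKM in MiaPaCa2 after siS100A16, against 72.0 to 77.7 after siControl, nearly all of it COL1A2 and COL3A1, while DCN and LUM were at or near 0. Leukocyte markers summed to 83.5 to 87.7 FPKM in PANC-1 after siKCNN4, against 44.4 to 47.5 after siControl, mostly CD68. The part of these markers in the values of EGFR, EPHA2 and the ligands was not tested.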

How the data were processed

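The authors deposited FPKM in a single table with a column per library. TopHat2 2.0.12 and GRCh37 appear in the submitters' processing notes. The study's methods name an Ensembl annotation of GRCh37 for the FPKM. The program and strand setting that produced them were not given in the sources used here. EGFR, ERBB2, ERBB3, TGFA and EPHA2 each overlap at least 1 other annotated gene, such as an antisense gene at EGFR and EPHA2, and if strand was not used, reads from genes on opposite strands cannot be told apart. Low values stood in whole-number ratios in only 9.39 to 13.7% of pairs, so reads were not recovered, depth per library is unknown and no counting interval is given. The study's methods name a stranded library kit and the labels another kit, and the RNA extraction differs likewise, which was not resolved.

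Values were analysed as log2(FPKM + 1). Genes averaging 1 FPKM or more in a line (11875 in MiaPaCa2, 12513 in PANC-1) were tested with limma 3.58.1 in R 4.3.3, with a trend, in a model of the 5 groups of the line. Line differences and interactions used all 30 libraries and genes passing in either line (13304). The Benjamini-Hochberg adjustment ran over all tested genes. The procedure was tested on simulated data. The 8 genes were named whatever their values, together with listed genes called at least once and the 3 most alike genes of each, of which 1 is not reported here. Members and lists were chosen with earlier results of these data known. Alternatives were a pseudocount of 0.1, no filter, scaling by the median of ratios, only the groups compared, a replicate block and leaving out each library. Gene positions are from GENCODE on GRCh37, and start-site windows are from RefSeq on GRCh38.p14.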

Additional observations from a re-analysis of the deposited data

Results flagged for a closer look

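The effect of an siRNA differed between the lines for 14 pairs of gene and siRNA, tested with limma as PANC-1 minus MiaPaCa2 on the log2(FPKM + 1) scale over 30 libraries. The pairs share the siControl libraries of each line. AREG differed for each siRNA, by 0.98 (siDDX60L), 1.34 (siMYEOV), 2.53 (siKCNN4) and 1.46 (siS100A16). EREG also differed for each siRNA, by 0.73, 2.11, 2.22 and 1.55 in the same order. HBEGF differed by 1.16 for siMYEOV and 1.18 for siKCNN4, and EPHA2 by 0.95 and 0.67 for the same pair of siRNAs. ERBB2 differed by 0.79 for siS100A16. EGFR after siKCNN4 was the single called difference with a lower effect in PANC-1, at -0.54. That of EGFR after siDDX60L was also lower in PANC-1, at -0.47 (adjusted p = 1.3e-06), under the fold threshold. Levels of AREG and EREG under siControl were far lower in PANC-1 (2.12 and 3.36 FPKM) than in MiaPaCa2 (31.6 and 68.6 FPKM), and the part of the starting level in these differences was not tested.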

How the results depend on the processing

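Under 5 alternatives and the removal of each library, no called fold change of the 7 tested genes reversed, and every count of called genes, over all genes and over the 7, stayed within 1.5 times its main value. Of 1169 fold changes of the 7 tested genes recomputed, TGFA not among them, 1148 kept their side of the threshold, 18 passed it and 3 lost it. Many of these could not move by design. Leaving out the filter or the other groups changes only the adjusted p, not the fold change. With 3 libraries in every group, the same holds for the replicate block, except in the comparison of the lines under siControl. These 3 alternatives therefore say little of how stable a fold change is. The 3 losses were AREG after siMYEOV in MiaPaCa2 and the siKCNN4 line difference of EGFR, at 0.49 and -0.49 with the median of ratios, and HBEGF after siKCNN4 in PANC-1 without siKCNN4 replicate 2, at 0.49. Among the line differences, HBEGF for siDDX60L (0.48) came to 0.51 to 0.53 with a pseudocount of 0.1 or without MiaPaCa2 siDDX60L replicate 3, PANC-1 siControl replicate 1 or PANC-1 siDDX60L replicate 1, EPHA2 for siDDX60L (0.48) to 0.52 without MiaPaCa2 siControl replicate 1, and ERBB3 for siMYEOV (-0.42) to -0.50 and -0.56 without MiaPaCa2 siControl replicate 3 and PANC-1 siControl replicate 2. The replicate numbers did not pair the samples, since deviations of same-numbered libraries correlated at -0.05 to 0.16, with 1 of 24 pairs over 0.1, and each was closest to its own number in 8 of 24 cases. With the replicate block, 1903 genes were called after siDDX60L in MiaPaCa2. EGFR was -0.34 there with or without the block, which is fixed by the balanced design and is no test of the value. The block could change calls through the adjusted p, and it changed no call of the 7 genes. Scaling by the median of ratios shifted the median of all genes by -0.10 after siMYEOV in MiaPaCa2, and moved the share of called genes that were higher to 44.6% from 54.6% (siDDX60L), 45.8% from 61.0% (siMYEOV) and 56.4% from 68.9% (siKCNN4) in MiaPaCa2, to 44.3% from 58.1% (siDDX60L) and 49.7% from 64.8% (siS100A16) in PANC-1, and to 49.8% from 64.0% for the siS100A16 line difference. Values below 1 FPKM, which cover TGFA and part of ERBB3, are limited by unknown depth.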
